A study of Mus musculus with 2 samples.

Results

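The genes described are those of the cytosolic ribosomal proteins, the proteins that form the 40S and 60S subunits of the ribosome in the cytosol together with ribosomal RNA. They were chosen by symbol alone, as the rows named Rpl or Rps with a number and at most a few trailing letters, together with *Rpsa*, *Rplp0*, *Rplp1*, *Rplp2* and *Fau*, leaving out the kinases named Rps6k. The rule found 85 of the 18498 rows of the deposited table. All 78 genes of a list of core ribosomal proteins had a row, 32 for the small subunit and 46 for the large subunit. The other 7 rows were paralogs, namely *Rpl3l*, *Rpl7l1*, *Rpl22l1*, *Rpl36al*, *Rpl39l*, *Rps27l* and *Rps4y2*.

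The values came from 2 poly(A) RNA libraries of mouse tongue, 1 of the circumvallate papillae (CvP), the posterior papillae that hold many taste buds, and 1 of tongue epithelium without papillae (Epi). Both were made from male C57BL/6J mice of 12 to 30 weeks on normal chow, with no genetic change or treatment, and RNA of at least 20 mice was pooled for each. No library was repeated, so each ratio compares 1 library with 1 library and carries no p-value. The estimated 28368794 mapped reads of CvP and 27906458 of Epi, recovered from the values, set the 95% exact binomial intervals that follow the ratios, and these cover counting error only.

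Each ribosome carries a single copy of nearly every core protein, and cells make these proteins in large and balanced amounts. The mRNAs of most of them begin with the 5′ TOP motif, a C followed by an unbroken run of pyrimidines, through which the mTORC1 pathway controls how strongly they are translated. Their mRNAs are also the source of a large number of processed pseudogenes, copies of the spliced message that have returned to the genome. In stratified epithelia such as that of the tongue, protein synthesis serves both the dividing basal cells and the keratin-filled cells above them.

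The start of transcription is shown for members whose RefSeq start carries the motif and for paralogs whose start does not, since the motif was not used to choose the genes. Of the 85 members, 64 had an entry in the RefSeq table of starts (GRCm38.p6). A C followed by at least 4 pyrimidines stood exactly at an annotated start in 14 of these 64 genes (21.9%), against 3.01% of the 27025 genes of the table. When the search, on the strand of the gene, was widened to a C followed by at least 6 pyrimidines within 10 bases of a start, 31 members (48.4%) held it, against 14.1% of all genes. Among the 67 mitochondrial ribosomal protein genes in the table, the exact motif stood at the start of 0. Each line gives 10 bases before and 20 bases after the start, and capitals mark the C at the start and the pyrimidines that follow it without a break. *Rpl15* and *Rps6* were chosen as further examples after their starts were seen.
*Fau*, chr19:6057937-6057966, plus strand: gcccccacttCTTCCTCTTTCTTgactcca
*Rpl15*, chr14:18270967-18270996, minus strand: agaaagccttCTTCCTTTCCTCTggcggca
*Rpl35*, chr2:39005112-39005141, minus strand: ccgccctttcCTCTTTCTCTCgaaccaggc
*Rps6*, chr4:86857348-86857377, minus strand: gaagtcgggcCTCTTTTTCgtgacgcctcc
*Rplp2*, chr7:141447641-141447670, plus strand: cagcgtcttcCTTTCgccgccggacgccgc
*Rps27*, chr3:90213629-90213658, minus strand: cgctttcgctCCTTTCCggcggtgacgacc
*Rpl7l1*, chr17:46782637-46782666, minus strand: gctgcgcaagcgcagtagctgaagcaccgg
*Rpl3l*, chr17:24727816-24727845, plus strand: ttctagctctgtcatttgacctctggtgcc
The run in capitals was 13 bases in *Fau* and *Rpl15*, 11 in *Rpl35*, 9 in *Rps6*, 7 in *Rps27* and 5 in *Rplp2*. No such run stood at the starts shown for *Rpl7l1* and *Rpl3l*. At the annotated start most core genes with an entry lacked it as well, since 14 of 58 (24.1%) held it. Whether the annotated starts are those used in the tongue was not tested, so absence there is not absence from the mRNA. The wider form near a start was held by 28 of these 58 (48.3%). It was also held by *Rpl22l1*, *Rpl39l* and *Rps27l*, and not by *Rpl3l*, *Rpl7l1* and *Rpl36al*. No paralog with an entry held the exact form at its annotated start, where most core genes lacked it too. Absence of the run at a start therefore does not tell a paralog from a core gene.

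The comparison of CvP with Epi asks which genes are more strongly expressed in the taste papillae than in the surrounding epithelium. Every core ribosomal protein gene had a lower RPKM (reads per kilobase of exon model per 1000000 mapped reads) in CvP than in Epi, and the ratios lay within a narrow range. The CvP/Epi ratio was below 1 in 78 of 78 core genes, from 0.523 (*Rps29*) to 0.926 (*Rpl10*), with a median of 0.754. The counting interval lay below 1 in all 78. Over all 12549 rows that reached an RPKM of 1 in CvP or Epi, 21.8% had a ratio below 1 and 15.9% had an interval below 1.

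Of the 85 members, 83 reached an RPKM of 1 in CvP or Epi, the exceptions being *Rpl3l* and *Rpl39l*. The median ratio of these 83 was 0.756, or -0.40 on the log2 scale, beside a median of 1.43 over all 12549 rows that passed the same minimum. A ratio below 1/1.5 was found in 9 members, against 7.23% of those rows. A ratio above 1.5 was found in 1 member, *Rps4y2*, against 46.1% of rows. None of the members met the criteria of the study for CvP genes, a CvP RPKM above 10 with a ratio above 3, which 3.47% of rows met.

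The level of the ratios depended on how the libraries were scaled, and the direction of most members held. The median ratio of the 10363 rows with an RPKM of at least 1 in both libraries was 1.31, a shift of 0.39 on the log2 scale, and relative to that median the members stood at 0.576. Divided by that median, 77 members fell below 1/1.5 and 1 lay above 1.5. When each library was instead rescaled to the same summed RPKM, the median of the members was 0.912, 74 of the 83 had a ratio below 1 against 81 as deposited, and 1 fell below 1/1.5. Genes whose direction turned under that common sum included *Rps27l* (1.13), *Rpl10* (1.12), *Rpl24* (1.10), *Rpl3* (1.07), *Rps13* (1.04) and *Rpl7* (1.01). *Rpl7l1*, at 1.07 as deposited, was at 0.811 relative to the median row.

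**Figure D1:**
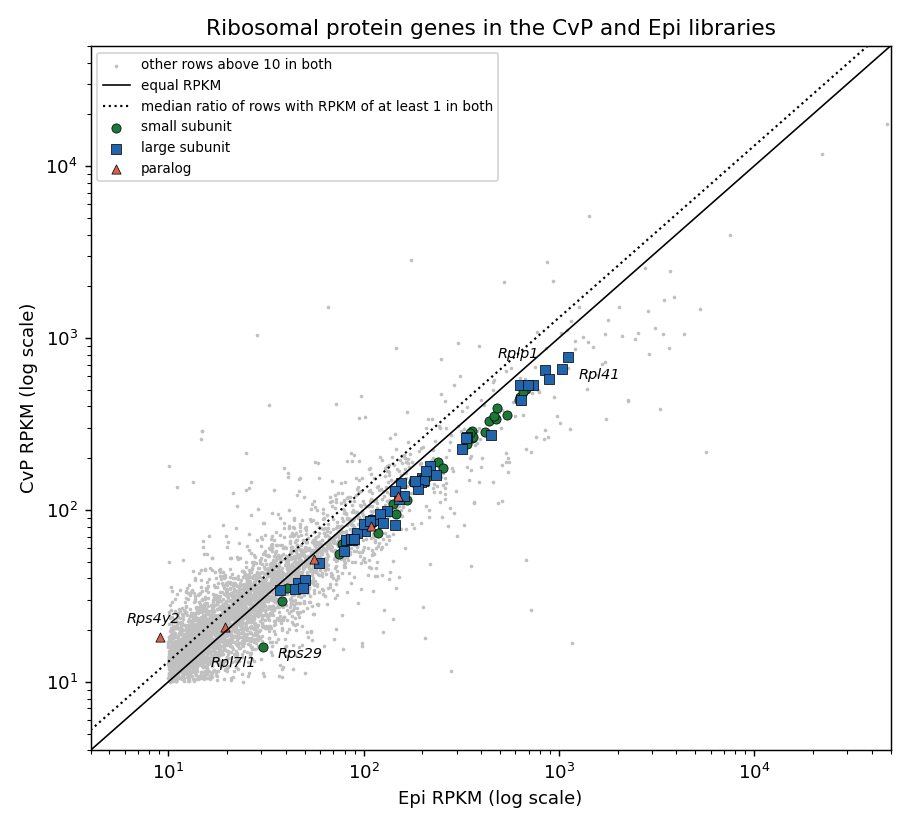
RPKM in CvP (vertical axis) against RPKM in Epi (horizontal axis), both on log scales, for the 83 members that passed the minimum (circles, small subunit; squares, large subunit; triangles, paralogs) and for the 4021 other rows above an RPKM of 10 in both libraries (grey). The solid line marks equal RPKM and the dotted line the median ratio of 1.31, and all core genes lie in a narrow band below the solid line.

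Rows of high RPKM had lower ratios as a whole, so the members were also set beside other rows of like level. Among 4021 other rows with an RPKM above 10 in both libraries, the median ratio was 1.09, 38.7% lay below 1, 30.1% had an interval below 1, 10.3% lay below 1/1.5 and 16.1% above 1.5. For a geometric mean RPKM of 30 to 100, the median ratio was 0.787 over 27 members and 1.01 over 1222 other rows. At 100 to 300 it was 0.747 over 30 members and 0.878 over 249 other rows. Above 300 it was 0.731 over 23 members and 0.667 over 108 other rows, so that at the highest levels the other rows had the lower median.

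The ratios of the core genes lay closer together than those of other genes. The SD of the log2 ratio was 0.14 over the 78 core genes and 0.65 over the 4021 other rows above 10 in both libraries. A ratio within 1.2 times the median of their own group was found in 72 of 78 core genes (92.3%) and in 44.0% of the other rows. The log2 RPKM of CvP and of Epi followed each other across the core genes with a coding sequence (Spearman's rho = 0.99, n = 77 genes of the same 2 libraries, which are not independent replicates). By intervals from estimated reads, the spread exceeded counting error in part. The interval of 34 core genes held the median of 0.754, that of 21 lay above it and that of 23 below. How reads with several matches were counted is not given, so the widths of these intervals are approximate.

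**Figure D2:**
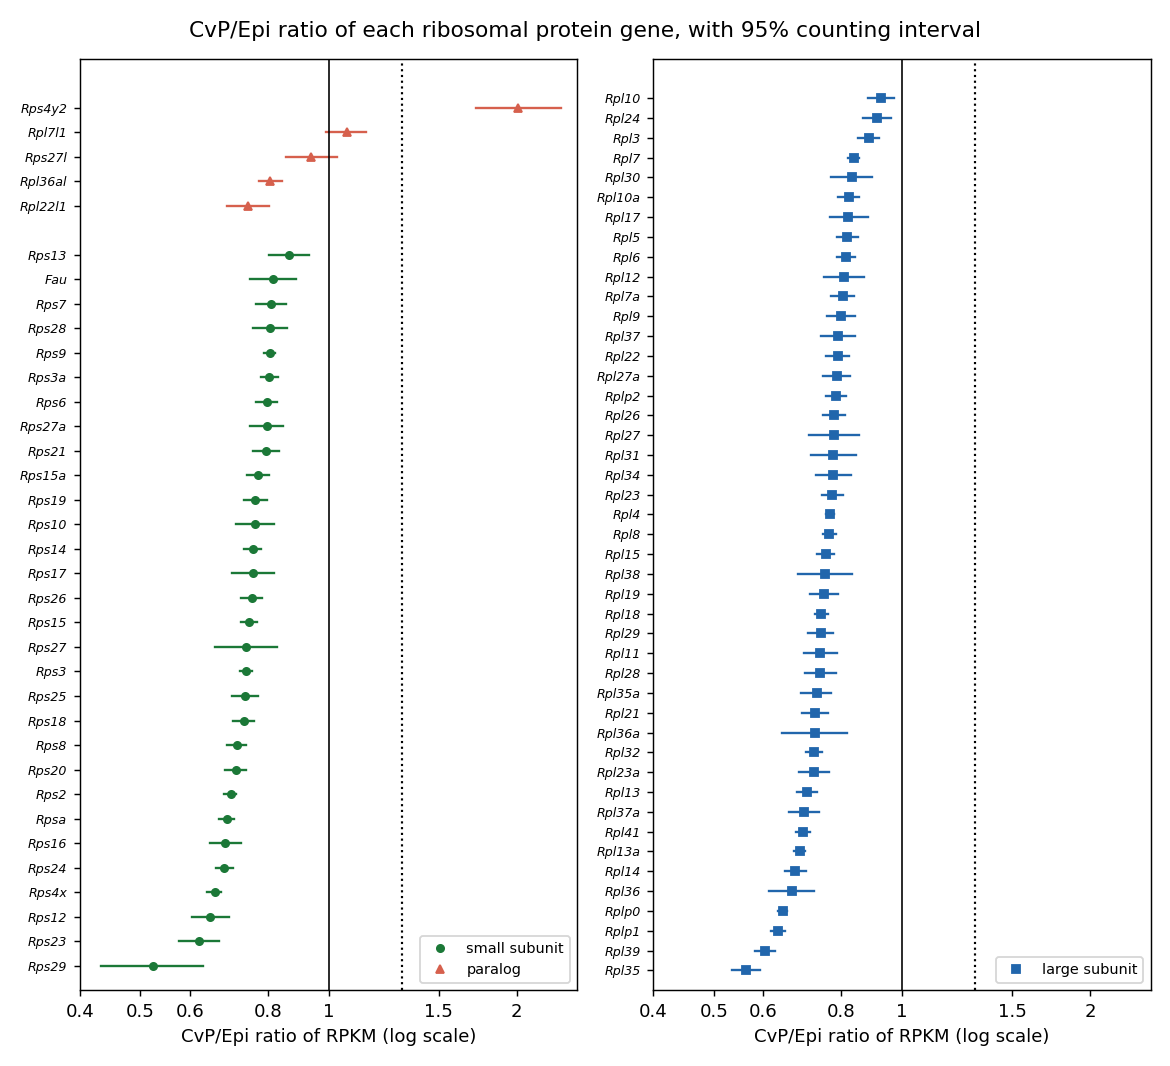
CvP/Epi ratio of RPKM on a log scale for 80 of the 83 members that passed the minimum, sorted within the small subunit, the paralogs and the large subunit, with horizontal bars for the 95% counting interval. The solid line marks a ratio of 1 and the dotted line the median row at 1.31, and *Rps4y2* at 2.01 is the member that lies beyond the dotted line.

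The 32 genes of the small subunit had a median ratio of 0.745 and the 46 of the large subunit a median of 0.765. The lowest member of the small subunit was *Rps29*, a short zinc-binding protein of the 40S head, with an RPKM of 16.0 in CvP and 30.6 in Epi (ratio 0.523, 0.433 to 0.629). The highest was *Rps13*, at 35.2 and 40.7 (ratio 0.865, 0.802 to 0.932). These intervals did not overlap, but the genes were picked as the extremes of their subunit, so this is no test. *Rps23*, which sits in the decoding centre, was among the 5 lowest ratios of the 83 members that passed the minimum, at 73.7 and 118.7 (ratio 0.621, 0.576 to 0.669).

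*Rps4x*, the X-linked S4 protein of the 40S subunit, had an RPKM of 356.8 in CvP and 543.3 in Epi (ratio 0.657, 0.640 to 0.674). Other genes of the small subunit named here were chosen for their roles after their values were seen. *Rps2* and *Rps3*, which line the entry of the mRNA channel, stood at 435.5 against 625.1 (ratio 0.697) and at 266.8 against 361.9 (ratio 0.737). *Rps6*, the subunit's best known phosphorylated protein and a target of the S6 kinases, stood at 191.0 and 240.0 (ratio 0.796, 0.766 to 0.827). *Rps19* and *Rps26*, both mutated in Diamond-Blackfan anaemia, had ratios of 0.764 (0.733 to 0.797) and 0.753 (0.724 to 0.783). Each of these lay below 1, and those of *Rps19* and *Rps26* overlapped.

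In the large subunit the lowest ratio was that of *Rpl35*, a protein at the mouth of the exit tunnel, with an RPKM of 81.8 in CvP and 145.4 in Epi (ratio 0.563, 0.534 to 0.593). *Rpl39*, a very small protein that lines the same tunnel, followed at 271.1 and 449.4 (ratio 0.603, 0.582 to 0.626). The highest was *Rpl10*, which joins the 60S subunit late in its assembly, at 144.2 and 155.7 (ratio 0.926, 0.884 to 0.970). *Rpl24*, which forms a bridge between the subunits, stood at 34.1 and 37.3 (ratio 0.914, 0.867 to 0.962). The intervals of these top and bottom pairs were far apart, while those within each pair overlapped. As the pairs were picked as extremes of the ratio, this separation is no test of a difference between them.

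*Rpl3*, which reaches towards the peptidyl transferase centre, stood at 128.8 in CvP and 145.6 in Epi (ratio 0.885, 0.851 to 0.919), and *Rpl7* at 529.6 and 633.1 (ratio 0.837, 0.820 to 0.854). *Rpl5* and *Rpl11*, which bind 5S ribosomal RNA and, when free, the ubiquitin ligase Mdm2, were chosen for this role after their values were seen. Their ratios were 0.818 (0.787 to 0.850) and 0.740 (0.696 to 0.788), and their RPKM values in CvP were 82.4 and 75.6. *Rpl22*, an RNA-binding protein at the outer face of the 60S subunit, stood at 68.1 and 86.4 (ratio 0.789, 0.756 to 0.823).

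The stalk of the 60S subunit, which recruits the GTPases of translation, is built from *Rplp0* and the acidic proteins *Rplp1* and *Rplp2*. *Rplp0* had an RPKM of 577.1 in CvP and 895.8 in Epi (ratio 0.644, 0.633 to 0.655), and *Rplp1* had 659.8 and 1042 (ratio 0.633, 0.617 to 0.650). *Rplp2* had 260.9 and 333.2 (ratio 0.783, 0.755 to 0.813). The intervals of the first pair overlapped and lay below that of *Rplp2*. The difference between these 3 genes has no replicate behind it.

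The genes made as fusions with ubiquitin or a ubiquitin-like protein encode a ribosomal protein and a cleaved leader. *Rps27a* had an RPKM of 87.2 in CvP and 109.5 in Epi (ratio 0.796, 0.750 to 0.845), and *Fau* 63.0 and 77.4 (ratio 0.814, 0.748 to 0.886). *Gnb2l1*, now named *Rack1*, a scaffold bound to the 40S head that falls outside the symbol rule, had 466.5 and 610.6 (ratio 0.764, 0.750 to 0.779). The ratio of *Gnb2l1* thus lay within the range of the core genes.

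Levels within a library spread far more than ratios. Among the core genes the highest RPKM was 48.3 times the lowest in CvP and 36.4 times in Epi. These levels depend on the gene length used. Across core genes the listed length was 0.135 to 5.09 times that of the longest protein-coding transcript, with a median of 2.77. The part of length in this spread of levels was not tested. The highest members in CvP were *Rpl41* at 772.8 (1114 in Epi, ratio 0.694), *Rplp1*, *Rpl4* at 653.3 (851.6, ratio 0.767), *Rplp0* and *Rpl32* at 536.1 (740.8, ratio 0.724). *Rpl41* encodes one of the shortest proteins known, and *Rpl4* and *Rpl32* are 60S proteins, *Rpl4* with a loop in the exit tunnel. In each library 14 members stood among the 100 rows of highest RPKM, and none among the 10 highest.

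Levels were lower in core genes whose coding sequence is repeated elsewhere in the genome. Each window of 75 bases, the read length, of the coding sequence of 84 members (all but *Rpl41*) was searched in the NCBIM37 genome outside the gene itself. In 25 members every window had an exact match elsewhere, and in 62 every window had one with up to 2 mismatches. The median share of windows with an exact match was 80.9%, and the median number of places was 9, with 136 for *Rpl7a*. *Rps3*, *Rpl3l* and *Rpl39l* (named for this count) were among the members with no window that matched exactly elsewhere.

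In CvP the median RPKM was 446 over the 16 core genes with under 50% of windows elsewhere, 146 over the 36 with 50% or more but not all, and 82.4 over the 25 with all windows elsewhere. In Epi the same medians were 634, 193 and 109. Across these 77 genes, the geometric mean RPKM and the share of windows elsewhere had a Spearman's rho of -0.66, as a description of genes that share both libraries and one alignment. *Rpl22* departed from this order, with 8.95% of windows elsewhere and an RPKM of only 68.1 in CvP. The part of multiple matches in these levels was not tested, since how reads with several places were counted is not given in the sources used here.

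The CvP/Epi ratio did not follow the share in this way. Its median was 0.745, 0.754 and 0.777 in the same 3 classes, and its rho with the share was 0.18. Its rho with the geometric mean RPKM was -0.29 and with coding length 0.22. *Rps29*, which has all windows elsewhere, had the lowest ratio of the core genes, and *Rpl10*, also with all windows elsewhere, had the highest. The 31 members with the pyrimidine motif near the start included 30 that passed the minimum, with a median ratio of 0.754, and the 32 without it had a median of 0.776.

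**Figure D3:**
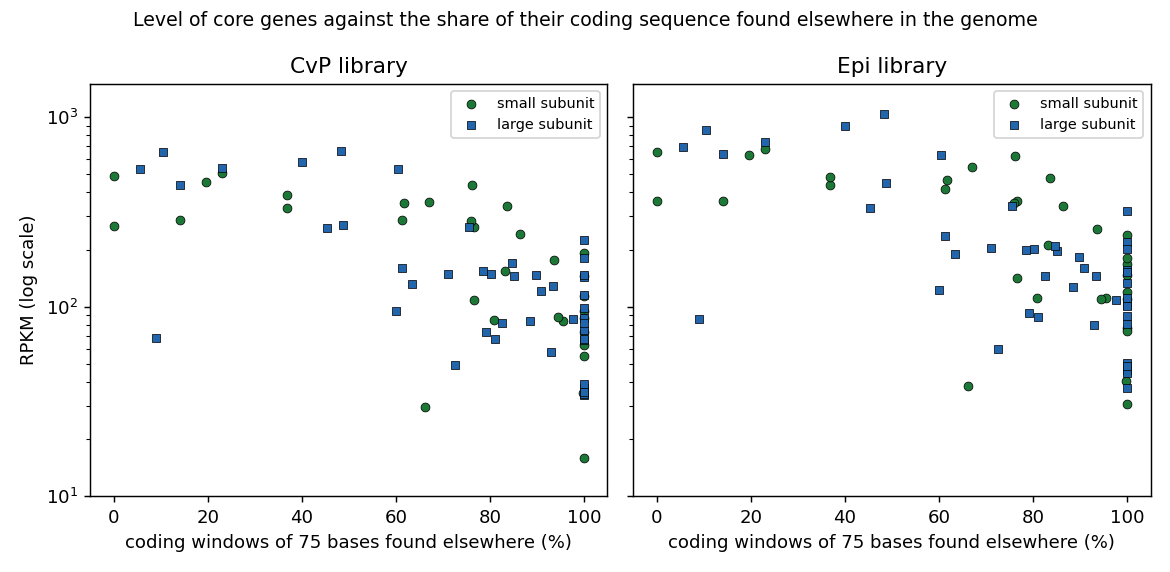
RPKM on a log scale of the 77 core genes with a coding sequence, in CvP (left) and Epi (right), against the percentage of their 75-base coding windows that match exactly elsewhere in the NCBIM37 genome. Genes with few such windows lie mostly above an RPKM of 200 in both libraries, and the genes at 100% reach from 16.0 to 225 in CvP.

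In 6 loci the same place was listed under a second symbol, and the RPKM of the gene was then only part of what was listed there. These second rows cover at least 50% of the span of the gene on the same strand and carry names of predicted genes or pseudogenes. They were named because of this overlap, after their values were seen. At *Rpl30* (49.4 in CvP and 59.4 in Epi) the row *Gm12191* held 106.5 and 128.2 (ratio of the sums 0.831), and at *Rpl34* (94.8 and 122.0) the row *Rpl34-ps1* held 163.4 and 212.3 (0.772).

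At *Rpl26* (264.3 and 339.4) the row *Gm15772* held 203.8 and 265.0, with a ratio of the sums of 0.774. At *Rps23* the row *Gm15450* held 38.4 and 45.3, with a ratio of its own of 0.847 (0.793 to 0.905) where *Rps23* had 0.621. At *Rps27* (55.2 and 74.8, ratio 0.737) the row *Gm9846* held 64.6 and 65.4, with a ratio of 0.988. The summed rows had ratios of 0.683 and 0.854 at these last loci, so that the low ratio of *Rps23* in particular depends on which rows are counted as the gene. With second rows added at all 6 loci the median of the members stayed at 0.756 and 8 members lay below 1/1.5.

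**Figure D4:**
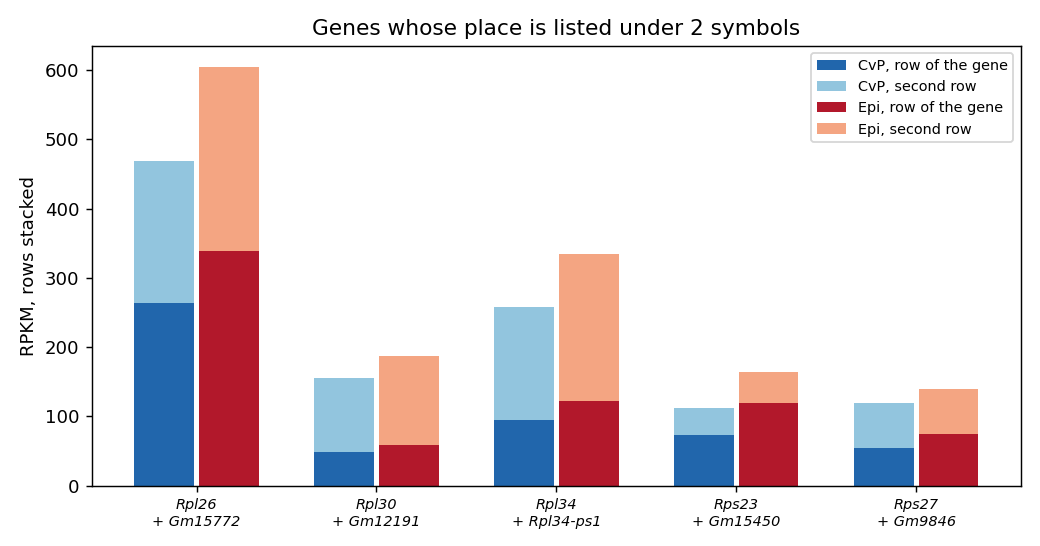
RPKM (linear axis from 0) at 5 of the 6 loci listed under 2 symbols, with the row of the gene at the base of each bar and the second row stacked on it, for CvP (blue) and Epi (red). At *Rpl30* most of the RPKM, 106.5 of 156 in CvP and 128.2 of 188 in Epi, stands in the second row.

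Of the 5 paralogs that passed the minimum, *Rps4y2* had a ratio farthest from the median of the core genes. It had an RPKM of 18.1 in CvP and 9.02 in Epi (ratio 2.01, 1.72 to 2.36), while its parent *Rps4x* had a ratio of 0.657. RefSeq now lists this gene as *Rps4l*, a transcribed pseudogene, and it was the only one of the 85 members in that class. It lies on chromosome 6 from 148303178 to 148304118 (NCBI37/mm9, plus strand) within the span of *Tmtc1*, which is read from the other strand and had an RPKM of 0.64 in CvP and 0.24 in Epi. Its 789 coding bases were 79.9% identical to those of *Rps4x*, and 8.11% of its windows had an exact match elsewhere. The kit used does not mark strand, so reads from *Rps4y2* and from *Tmtc1* at this place cannot be told apart.

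*Rpl7l1*, a nucleolar relative of L7, had an RPKM of 20.8 in CvP and 19.5 in Epi (ratio 1.07, 0.990 to 1.15), and it stood at 3.92% of its parent *Rpl7* in CvP and 3.08% in Epi. *Rps27l*, which is known as a p53 target, had 52.2 and 55.5 (ratio 0.939, 0.854 to 1.03), which was 94.5% and 74.2% of the row of *Rps27*, and 43.5% and 39.6% of the sum of *Rps27* and the second row at its place. The interval of each of these genes held 1 and lay above the median of the core genes. *Rpl22l1* had 81.0 and 108.9 (ratio 0.744, 0.688 to 0.804), which was 119% and 126% of *Rpl22*, and *Rpl36al* had 120.6 and 149.5 (ratio 0.807, 0.773 to 0.842), which was 341% and 306% of *Rpl36a* (35.4 and 48.8, ratio 0.725, 0.643 to 0.817). *Rpl22l1* and *Rpl36al* thus had ratios within the range of the core genes and a higher RPKM than their parents in both libraries. An exact match elsewhere was found for 100% of the windows of *Rpl36a* and 69.6% of those of *Rpl36al*, and for 8.95% of *Rpl22* and 71.5% of *Rpl22l1*. The parents also had longer listed lengths, 6.0 kb for *Rpl22* against 2.101 kb, and 2.381 kb for *Rpl36a* against 1.137 kb. Estimated reads multiply RPKM by a length, which can be less than the listed one, so they are not free of length. By this estimate *Rpl22* (3964 in CvP, 4943 in Epi) exceeded *Rpl22l1* (1123, 1485), and *Rpl36al* (3890, 4742) exceeded *Rpl36a* (485, 658). Estimated reads are therefore no check of the RPKM order against length. The part of matches and of length in these levels was not tested.

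Expression of *Rpl3l*, the L3 paralog of striated muscle, was close to 0, at 0.06 in CvP and 0.51 in Epi, where its parent *Rpl3* had 128.8 and 145.6. These are an estimated 2 reads in CvP, below the floor of 3 reads, and 20 in Epi. The skeletal muscle markers were also higher in Epi, and a link between them and *Rpl3l* was not tested. *Rpl39l*, the L39 paralog of the testis, was listed at 0 in CvP and 0.05 in Epi, below the level of 3 reads. *Rpl10l*, another paralog of the testis, has no row and was not analysed here.

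Each pair of equal length is shown by its coding stretch of 30 bases with the most differences, with differing bases in capitals. As the most divergent stretch, it does not show how far reads of 75 bases tell the genes apart. Within 2 mismatches, 100% of the windows of *Rps27*, *Rpl36a*, *Rpl36al* and *Rpl39* matched elsewhere in the genome. For *Rps27l* this was 43.6% and for *Rpl39l* 0%. Coding sequences are those of GENCODE M1 on NCBIM37, and positions are counted from 1 at the first base of the start codon.
*Rps27*, coding bases 6 to 35, chromosome 3: TctCgcAaAGgatctCCtTcaTccCtcTCC
*Rps27l*, coding bases 6 to 35, chromosome 9: CctGgcTaGAgatctGTtAcaCccTtcCTT
*Rpl36a*, coding bases 151 to 180, chromosome X: cagacTaagccTatTttCcgCaaAaaggcT
*Rpl36al*, coding bases 151 to 180, chromosome 12: cagacAaagccAatCttTcgAaaGaaggcC
*Rpl39*, coding bases 116 to 145, chromosome X: cTaagAgAagacaCtggagGAgaacGaaGC
*Rpl39l*, coding bases 116 to 145, chromosome 16: cCaagCgGagacaTtggagACgaacCaaAT
The stretch holds 13 differences in *Rps27l*, 7 in *Rpl36al* and 9 in *Rpl39l*. Over the aligned coding sequences, with gaps counted as differences, identity to the parent was 76.6% for *Rps27l*, 87.9% for *Rpl36al*, 85.3% for *Rpl39l*, 69.6% for *Rpl22l1* (369 coding bases against 387) and 57.7% for *Rpl7l1* (741 against 813). None is given for *Rpl3l*, whose coding sequence in the annotation had 723 bases against 1212 in *Rpl3*.

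Other genes of translation were lower in CvP less uniformly. Of 39 translation factors, 31 had a ratio below 1, with a median of 0.902, and 2 lay below 1/1.5 and 1 above 1.5. The lowest was *Tpt1*, a growth-linked protein whose mRNA also carries a 5′ TOP motif, at 199.7 in CvP and 405.7 in Epi (ratio 0.492, 0.478 to 0.507), and the highest was *Eif4a2*, a helicase of initiation, at 78.4 and 39.3 (ratio 2.0, 1.91 to 2.09). The elongation factors, chosen after their values were seen, ranged from *Eef1b2* (ratio 0.691), *Eef1d* (0.755) and *Eef1g* (0.756) to *Eef1a1* (0.926) and *Eef2* (0.930). The first of these had the ratios of core ribosomal protein genes, and *Eef1a1* and *Eef2* lay at or above their upper end.

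Genes of ribosome biogenesis, a list of nucleolar factors, other assembly factors, subunits and factors of RNA polymerase I and the transcription factor *Myc*, had a median ratio of 0.947 over 37 genes, with 24 below 1, 13 above 1 and 3 below 1/1.5. They ranged from *Nhp2*, a protein of H/ACA particles, at 40.4 and 70.0 (ratio 0.578, 0.537 to 0.621), to *Utp20*, of the small subunit processome, at 6.67 and 4.50 (ratio 1.48, 1.37 to 1.60). The 76 genes of the mitochondrial ribosome, which serves a separate translation system, had a median of 1.03, with 30 below 1 and 46 above, 5 above 1.5 and 0 below 1/1.5. They ranged from *Mrpl14* at 29.6 and 42.3 (ratio 0.699, 0.625 to 0.782) to *Mrps5* at 11.8 and 5.19 (ratio 2.27, 2.05 to 2.52). Neither list lay wholly on one side of 1, unlike the core cytosolic genes, and the medians of both lay below the median ratio of 1.31.

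**Figure D5:**
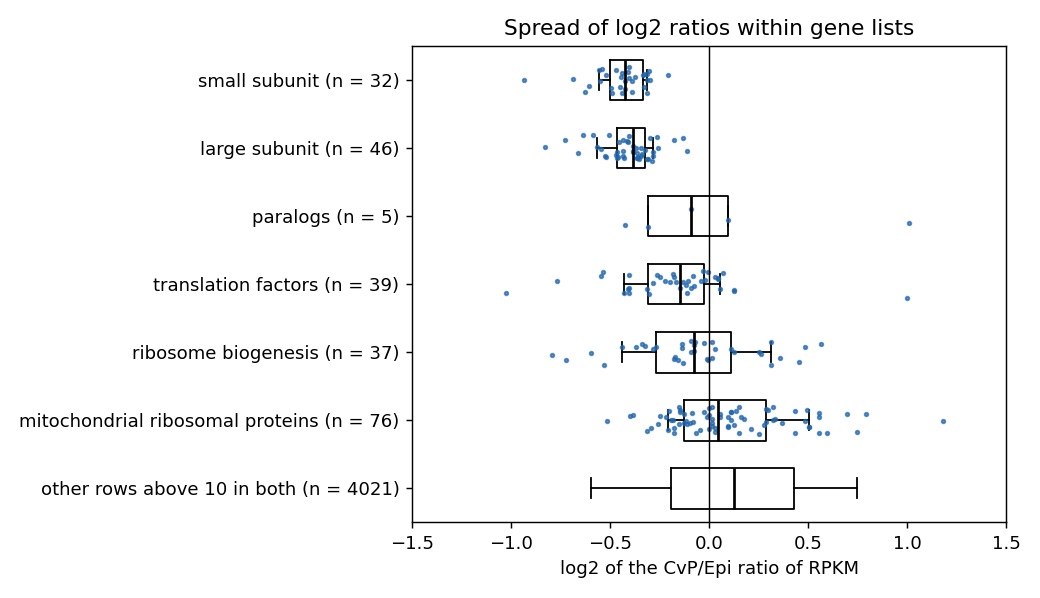
log2 of the CvP/Epi ratio of RPKM in the small subunit (n = 32), the large subunit (n = 46), the paralogs that passed the minimum (n = 5), translation factors (n = 39), ribosome biogenesis (n = 37), mitochondrial ribosomal proteins (n = 76) and other rows above 10 in both libraries (n = 4021). Boxes show the quartiles and median, whiskers the 10% and 90% points and dots single genes, and both subunits form narrow boxes below 0.

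All members together took 4.76% of the summed RPKM of CvP and 5.38% of that of Epi, a ratio of 0.885. A few keratin rows weighed heavily on these sums, *Krt13* alone with 5.14% in CvP and 11.6% in Epi. Without the 10 highest rows of either library the members took 5.79% and 7.46%, a ratio of 0.776, and without the 8 genes of the keratinized epithelium list 5.30% and 6.92% (0.766). The members were thus a smaller share of CvP in each case.

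The tissues differed in markers of their cell types, which are given beside the 46.1% of all rows above 1.5 and the 7.23% below 1/1.5. In CvP all 10 taste markers were above 1.5 times Epi, with a summed RPKM of 411 against 5.82, and *Trpm5*, *Gnat3* and *Plcb2* were at 0.01 to 0.12 in Epi while *Kcnq1*, *Pkd2l1* and *Snap25* were listed at 0 there. Of 8 genes of keratinized epithelium, 7 were below 1/1.5 (summed RPKM 34800 in CvP and 91600 in Epi, none at 0), and of the keratins of basal cells *Krt5* had a ratio of 1.19 and *Krt14* one of 0.259. All 5 muscle markers were below 1/1.5 (summed 4.15 and 45.6, none at 0), and 5 of 6 immune markers, all that passed the minimum, were above 1.5 (205 and 22.9, with *Cd3e* at 0 in Epi). Of 6 proliferation genes all were above 1 and 5 above 1.5 (67.6 and 40.0, none at 0), and the lowest of them, *Pcna*, was at 1.04 relative to the median row. Of 4 salivary genes with a row, 2 were above 1.5 and 2 below 1/1.5 (20.9 and 395, none at 0). The part of these differences in the ratios of the ribosomal protein genes was not tested, and in bulk tissue fewer cells of a type and less RNA per cell cannot be told apart.

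Of 93 snoRNA rows, 32 lay within 22 of the members on the same strand. Many snoRNAs are known to be cut from introns of ribosomal protein genes. The median ratio of these 22 host genes was 0.752 and that of the 56 other core genes 0.754. The members were found on 20 chromosomes, with 14 on chromosome 7 and 8 on chromosome 17. *Rps2* and *Rpl3l*, named for their position after their values were seen, lay 5901 bases apart on chromosome 17, with an RPKM in Epi of 625.1 for the first and 0.51 for the second.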

How the data were processed

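The data were 2 libraries, 1 per tissue, so the result for a tissue has no replicate and no test was made. Per the labels and the study's methods, the authors mapped single-end reads of 75 bases with Bowtie 0.12.7 to NCBI37/mm9 and obtained RPKM values from exon models with ERANGE. In the deposited table, RPKM columns for CvP and Epi stand beside a gene length and the authors' own CvP/Epi ratio, which was not used. Treatment of reads with several matches is not given in the sources used here.

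The ratios were computed from the RPKM values without a pseudocount, over rows that reached an RPKM of 1 in CvP or Epi. Depth came from the step between low RPKM values in rows of 0.1 kb. Read numbers used the listed length, or the longest protein-coding GENCODE M1 transcript where that was shorter, which account for 81.9% of the mapped reads in CvP and 89.7% in Epi, against 177% and 200% with the listed length, so they are approximate. Intervals are 95% Clopper-Pearson and the floor is 3 reads. In simulated data for this comparison, 95.4% of intervals over 12549 rows held the true ratio, and depth was recovered to within 0.0300%. The simulation had known lengths and no reads with several matches, so it checks the code and not the intervals in the deposited data.

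The members and gene lists were chosen with earlier results of these data known. Genes named in the text are the 5 highest and 5 lowest members by CvP RPKM and by ratio, the stalk, ubiquitin-type and paralog genes with their parents, and the extremes of each other list, except where stated. Alternatives were pseudocounts, scalings, minimums, the core list, members with under 50% of windows elsewhere and other denominators. A few genes are counted in the summaries but not reported here by name. Starts came from RefSeq (GRCm38.p6). Python 3.11.15, numpy 2.4.6, pandas 2.3.3, scipy 1.17.1, numba 0.67.0 and matplotlib 3.10.9 were used.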

Additional observations from a re-analysis of the deposited data

How the results depend on the processing

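The median log2 ratio of the members was -0.40 as reported and -0.80 when ratios were divided by the median or by the trimmed mean of all rows, and -0.13 when both libraries were rescaled to a common sum. Members below 1/1.5 numbered 9 as reported, 77 with either division, 1 with the common sum and 3 among the 19 members with under 50% of windows elsewhere. Members above 1.5 numbered 1, and 0 in the core list alone. The ratio of the members' shares was 0.885 as reported, 0.871 for members with under 50% of windows elsewhere, 0.776 without the 10 highest rows, 0.810 with estimated reads and 0.888 with second rows at the same place added. Pseudocounts of 0.1 and 1, no minimum and a minimum RPKM of 10 moved the median to no less than -0.41 and no more than -0.40. Adding second rows at the same place, chosen after seeing the data, gave -0.40.

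No paired analysis was possible because CvP and Epi have 1 library each, and for the same reason no replicate was left out. Counting error, as estimated from approximate read numbers, is small for most members. The upper bound of the interval was 1.09 times the lower in the median core gene and 1.45 times in the widest. Differences between animals, dissections or library preparations are not covered by it.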
